A study of Mus musculus with 12 samples.

Results

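Described here are the mouse Fc gamma receptor genes Fcgr1, Fcgr2b, Fcgr3 and Fcgr4, together with Fcer1g and Tyrobp, which encode the adaptor chains FCER1G and TYROBP. They were taken by symbol from the annotation of the array and are 6 of the 18193 genes with a probe set of their own, represented by 11 of 34945 single-symbol probe sets. Fcgr2b has 5 of these probe sets, Fcgr1 has 2, and the other members have 1 each; 0 of the 11 are annotated to a second symbol. The cells were of the mouse line G1ME, progenitors of megakaryocytes and red cells that are Gata1-negative per the labels, which holds for all groups. They carried either MIGR1 expressing GATA1 or the MIGR1 vector alone, a retrovirus that marks transduced cells with green fluorescent protein (GFP), and cells positive for GFP were collected by sorting at 18 h or 42 h. The 4 groups, GATA1 at 42 h, vector at 42 h, GATA1 at 18 h and vector at 18 h, have 3 arrays each (A, B and C), described as biological replicates. All arrays are of 1 cell line, so the p-values speak of this line and of the spread between these samples.

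Fc gamma receptors bind the Fc part of immunoglobulin G and are known chiefly from macrophages, neutrophils, mast cells, natural killer cells and B cells. The activating mouse receptors encoded by Fcgr1, Fcgr3 and Fcgr4 signal through FCER1G, which carries an immunoreceptor tyrosine-based activation motif (ITAM) that recruits the kinase SYK, while the Fcgr2b product carries an inhibitory motif of its own and recruits the lipid phosphatase encoded by Inpp5d. TYROBP is a second ITAM adaptor, used by other receptors of myeloid and natural killer cells, and FCER1G also pairs with the collagen receptor GPVI on platelets. GATA1 is a transcription factor on which red cells and megakaryocytes depend to mature, so the comparison of GATA1 with vector asks what its supply does to these genes in a progenitor that lacks it.

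The targeted gene does not check the labels on these arrays. The single Gata1 probe set read 2418, 1714 and 1999 on GATA1 42 h replicates A, B and C, against 3088, 3053 and 3268 on the vector 42 h arrays, and 2311, 2257 and 2435 on the GATA1 18 h arrays, against 2815, 2864 and 3329 on the vector 18 h arrays. This probe set was bright although the line is said to lack the gene, and it was lower with the construct. Its position relative to the disrupted part or to the construct is unknown here. Of 7 erythroid markers, 7 were called higher on the GATA1-labelled arrays at 42 h, against 10.3% of all tested genes. Alas2 and Car1 exceeded the array median on GATA1-labelled arrays alone and were tested only for that reason, so their calls add no support. Among the others, Hbb-y, an embryonic beta-like globin gene, had means of 13810 with GATA1 and 41.7 with vector (limma adjusted p = 5.11e-06). Arrays are called GATA1-labelled or vector-labelled because the targeted gene gave no check, and all directions rest on these labels. Array medians lay between 8.05 and 8.29. The arrays differed in a control probe set for 18S ribosomal RNA, which read 8.32 to 12.41 (log2) on the arrays lettered A, 5.53 to 10.56 on those lettered B and 4.79 to 6.75 on those lettered C. The highest of these values was on GATA1 42 h replicate A, whose log2 ratio of 3′ to 5′ actin control probe sets, 0.80, was also the highest. Values below are the deposited linear intensities, and differences are of mean log2(intensity + 16), given with their SE, so that the change of dim probe sets is understated. A gene was called where the limma p-value, adjusted by the Benjamini-Hochberg method over 10759 genes, was under 0.05.

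The promoters are shown because 2 of the genes that fell with GATA1, Fcgr3 and Fcer1g, and the receptor gene Fcgr2b, which was not called against vector at either time, lie on the same chromosome. RefSeq promoters (GRCm38.p6) were found for 5 of the 6 members, each window running from 250 bases before to 50 bases after the annotated start of the gene. Fcgr3 has a second window that overlaps the one shown. All are given 5′ to 3′ in the direction of the gene, and capitals mark matches, on either strand, to a GATA motif (AGATAA or TGATAA when ending in A, otherwise AGATAG or its relative TGATAG) or to a core of the PU.1 site (GAGGAA or GGGGAA). PU.1 is the transcription factor encoded by Spi1.
Fcgr3 (chr1:171059354-171059653, minus strand): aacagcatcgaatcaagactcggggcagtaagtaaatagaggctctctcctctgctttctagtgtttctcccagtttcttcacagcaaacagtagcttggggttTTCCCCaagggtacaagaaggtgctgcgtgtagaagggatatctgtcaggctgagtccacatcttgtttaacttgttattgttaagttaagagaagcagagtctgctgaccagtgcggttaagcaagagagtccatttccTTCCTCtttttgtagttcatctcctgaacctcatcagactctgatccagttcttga
Fcer1g (chr1:171234300-171234599, minus strand): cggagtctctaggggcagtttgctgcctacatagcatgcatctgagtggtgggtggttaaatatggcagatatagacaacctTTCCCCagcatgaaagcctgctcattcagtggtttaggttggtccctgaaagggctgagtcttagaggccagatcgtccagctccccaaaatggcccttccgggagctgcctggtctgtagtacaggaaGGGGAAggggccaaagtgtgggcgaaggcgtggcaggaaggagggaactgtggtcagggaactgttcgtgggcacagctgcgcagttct
Fcgr2b (chr1:170976022-170976321, minus strand): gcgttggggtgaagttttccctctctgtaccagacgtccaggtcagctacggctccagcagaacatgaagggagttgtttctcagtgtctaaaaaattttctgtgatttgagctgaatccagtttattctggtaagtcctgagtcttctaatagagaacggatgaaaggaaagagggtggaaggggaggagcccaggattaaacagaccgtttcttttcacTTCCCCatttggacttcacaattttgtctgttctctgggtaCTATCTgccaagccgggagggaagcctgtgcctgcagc
The Fcgr3 window held 0 GATA motifs and 2 PU.1 cores, whose first bases lie 146 and 6 bases before the start. The Fcer1g window also held 0 GATA motifs and 2 PU.1 cores, 168 and 39 bases before the start. In the Fcgr2b window a PU.1 core lies 29 bases before the start and a GATA motif 12 bases after it. Over the 5 members with a promoter, 2 (Fcgr2b and Fcgr4) held a GATA motif and 5 held a PU.1 core, with 0 overlapping matches. Among all 27025 genes with RefSeq promoters of this length, 33.0% held a GATA motif and 48.0% a PU.1 core in at least 1 window, so that both short motifs are common. The match is of letters within this window and says nothing about binding.

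Fcgr3, Tyrobp and Fcer1g were the members called lower with GATA1 at 42 h, and of these only Fcgr3 was also called at 18 h. The other 3 members, Fcgr2b, Fcgr4 and Fcgr1, were not called at either time. At 42 h, 3 of the 6 members were lower and 0 were higher, against 10.6% of all tested genes called lower and 10.3% called higher. At 18 h, 1 of 6 was lower and 0 were higher, against 0.744% and 1.11% of all tested genes. The median difference of the 6 members was -0.86 at 42 h and -0.31 at 18 h, against 0.001 and -0.01 over all genes tested. These medians are a description, since they include Fcgr4, which was tested only because it exceeded the array median on vector-labelled arrays. In these bulk samples, fewer cells that express a gene and less RNA per cell cannot be told apart.

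**Figure D1:**
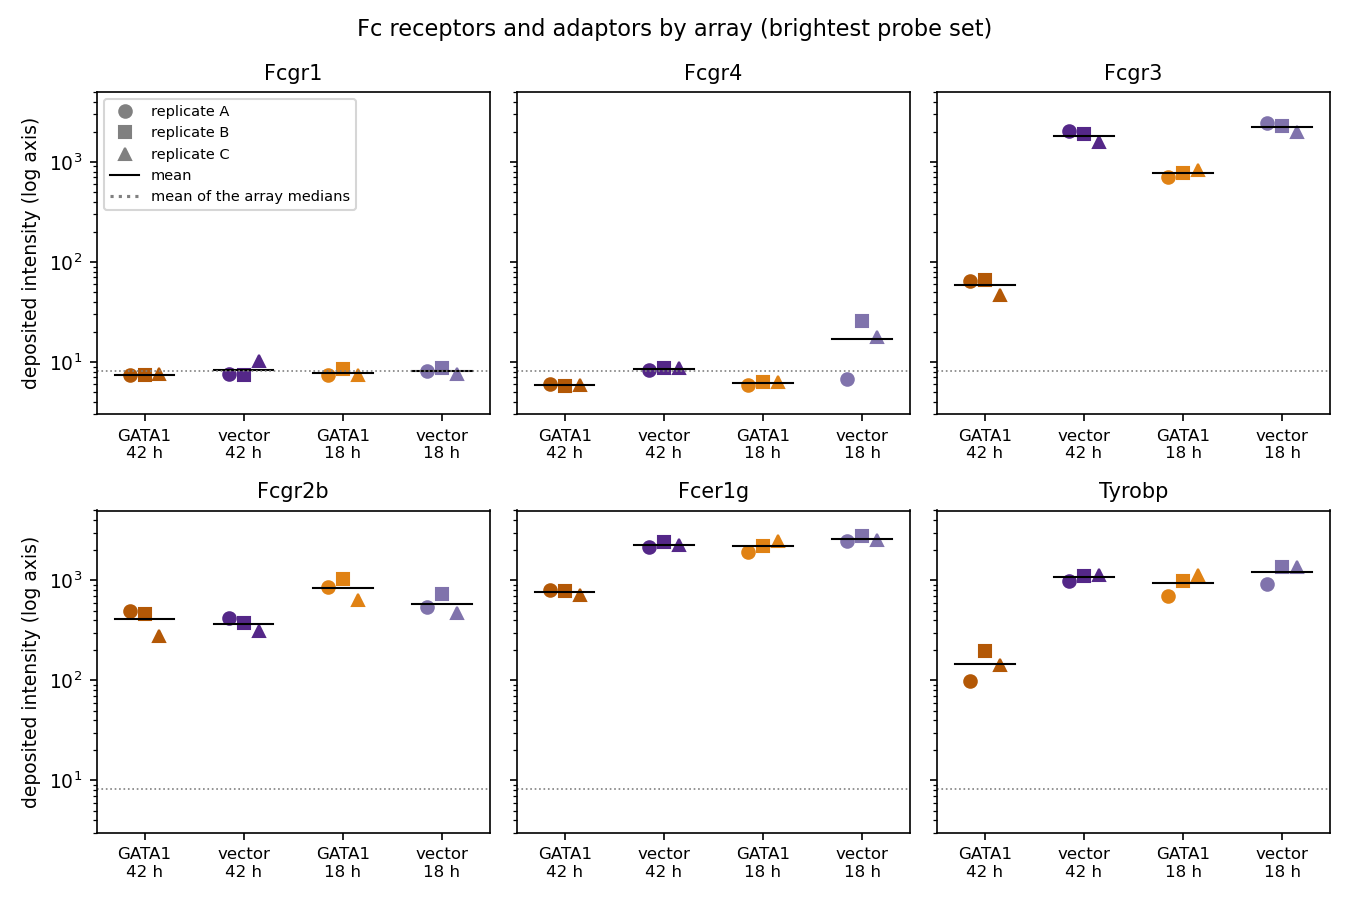
Deposited linear intensity (log axis) of each member's brightest probe set on every array, with GATA1-labelled arrays left of vector-labelled arrays at each time; points are arrays and bars are means of 3. At 42 h the GATA1-labelled arrays lie below the vector-labelled ones for Fcgr3, Tyrobp and Fcer1g, while those of Fcgr2b overlap.

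Fcgr3 encodes the low-affinity activating receptor FcγRIII (CD16), which needs FCER1G to reach the cell surface. At 42 h it read 64.8, 66.4 and 46.7 on the GATA1-labelled arrays, against 2019, 1880 and 1591 on the vector-labelled arrays. At 18 h it read 699.6, 775.4 and 835.0 with GATA1, against 2450, 2307 and 1981 with vector. The groups did not overlap at either time, and the GATA1-labelled arrays at 42 h were the lowest of all 12. The difference was -4.62 ± 0.13 at 42 h, 24.6-fold lower with GATA1 on the scale with 16 added (limma adjusted p = 3.39e-08), and -1.52 ± 0.13 at 18 h, 2.87-fold lower (limma adjusted p = 0.00124). Without the 4 arrays lettered A, the difference at 18 h was -1.39 with an adjusted p of 0.0502 and was no longer called, while the difference at 42 h stayed called. The effect at 42 h minus that at 18 h was -3.10 ± 0.19 (limma adjusted p for the interaction = 1.84e-05).

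Fcer1g encodes the ITAM chain shared by the activating Fc receptors. Its intensities at 42 h were 810.9, 777.5 and 710.7 with GATA1, against 2177, 2413 and 2253 with vector. The corresponding values at 18 h were 1916, 2208 and 2460 with GATA1, against 2453, 2758 and 2546 with vector. The groups were apart at 42 h, and at 18 h the highest GATA1-labelled array lay just above the lowest vector-labelled one. The difference at 42 h was -1.56 ± 0.09, or 2.94-fold lower with GATA1 (limma adjusted p = 3.67e-06), and that at 18 h, -0.24 ± 0.09, did not pass (limma adjusted p = 0.366). Its 95% confidence interval at 18 h, -0.446 to -0.035, lay below 0, so a small fall by that time remains possible. The 2 effects differed by -1.31 ± 0.13 (limma adjusted p = 0.000491).

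Tyrobp encodes the adaptor also called DAP12. Intensities at 42 h were 99.6, 196.6 and 143.6 on the GATA1-labelled arrays, against 979.8, 1108 and 1127 on the vector-labelled arrays. At 18 h, 697.8, 995.9 and 1126 were read with GATA1, against 918.8, 1361 and 1368 with vector. These groups overlapped at 18 h and were well apart at 42 h, with the lowest of the 12 values on GATA1 42 h replicate A. Tyrobp was lower with GATA1 by -2.78 ± 0.25 at 42 h, a 6.88-fold difference (limma adjusted p = 5.03e-05), and differed by -0.37 ± 0.25 at 18 h (adjusted p = 0.875). The interaction was -2.41 ± 0.35 (limma adjusted p = 0.00497). Without GATA1 42 h replicate A, the array that stood apart in its control probe sets, the differences at 42 h were -4.68 for Fcgr3, -1.60 for Fcer1g and -2.56 for Tyrobp, and all 3 stayed called.

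In the test of the difference between the 42 h and 18 h effects, 3 of the 6 members were lower, the same 3 genes as at 42 h, against 2.37% of all genes tested. The interaction shares the arrays of both comparisons and is a test of their difference, not a further set of samples. For the other members it was -0.39 for Fcgr2b (adjusted p = 0.73), 0.36 for Fcgr4 (adjusted p = 0.587) and -0.03 for Fcgr1 (limma adjusted p = 0.933).

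**Figure D2:**
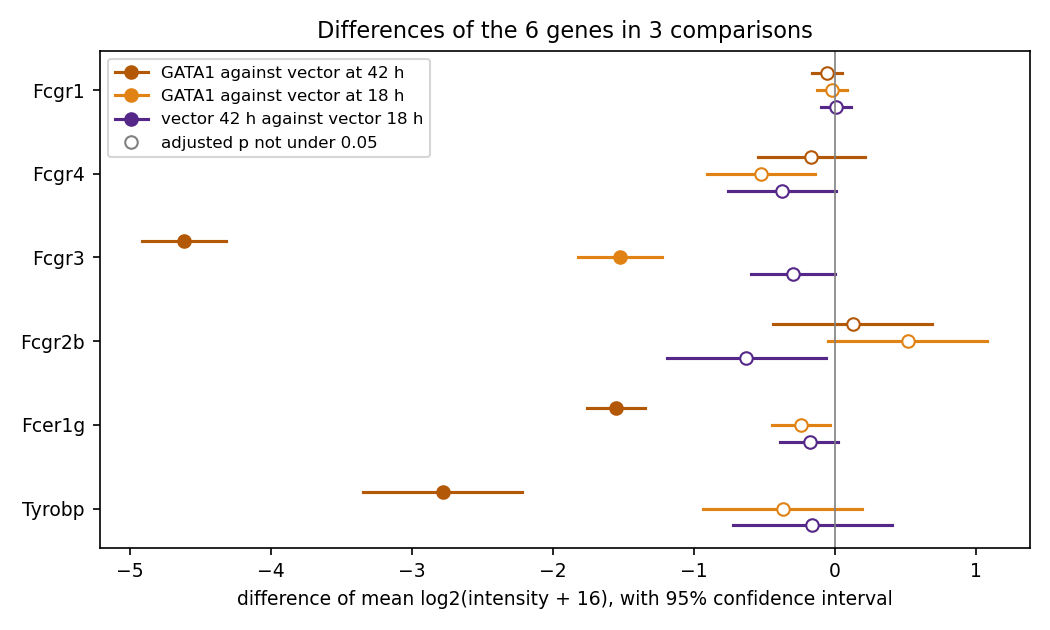
Difference of mean log2(intensity + 16) between GATA1-labelled and vector-labelled arrays for each member at 42 h and 18 h, and of vector 42 h against vector 18 h, with 95% confidence intervals from limma; filled points are called. Fcgr3 lies at -4.62 and -1.52, while the intervals of Fcgr2b and Fcgr1 for GATA1 against vector include 0 at both times.

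Fcgr2b encodes FcγRIIB, the inhibitory receptor of the family. Its brightest probe set read 495.7, 461.5 and 280.7 with GATA1 at 42 h, against 418.4, 372.2 and 314.4 with vector. At 18 h it read 858.5, 1042 and 635.6 with GATA1, against 546.8, 729.4 and 473.7 with vector. The groups overlapped at both times. GATA1 minus vector came to 0.13 ± 0.25 at 42 h, with a 95% confidence interval of -0.44 to 0.69 (limma adjusted p = 0.841). The 18 h value was 0.52 ± 0.25 (limma adjusted p = 0.591). A fall of the size seen for Fcer1g lies outside the interval at 42 h, while changes between its bounds remain possible.

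Over time in GATA1-labelled cells Fcgr2b did fall, with means of 412.6 ± 115.5 at 42 h and 845.4 ± 203.5 at 18 h (SD, n = 3 each) and a difference of -1.02 ± 0.25 (limma adjusted p = 0.0252). In vector-labelled cells the means were 368.3 ± 52.1 at 42 h and 583.3 ± 131.7 at 18 h, a difference of -0.63 ± 0.25 that did not pass (limma adjusted p = 0.717). The excess of the first over the second is the interaction of -0.39, which was not called. The call over time in GATA1-labelled cells was lost without GATA1 18 h replicate A (adjusted p = 0.0707), without GATA1 18 h replicate B (0.0876), without GATA1 42 h replicate C (0.0682), with no filter (0.0605), without the 4 arrays lettered A (0.106) and with only the arrays compared (0.0831).

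Of the 5 Fcgr2b probe sets, 4 gave readable signal, and 1447622_at read between 4.44 and 4.57 on all arrays, below the array medians. When every probe set was tested on its own, over 19636 probe sets, the 4 differed between GATA1 and vector at 18 h by 0.55 (1435476_a_at), 0.52 (1435477_s_at), 0.54 (1451941_a_at) and 0.40 (1455332_x_at), and none was called, the lowest limma adjusted p being 0.0578. The groups overlapped at 18 h for 1435477_s_at, the brightest, while for 1435476_a_at, 1451941_a_at and 1455332_x_at the GATA1-labelled arrays lay above the vector-labelled ones. For 1455332_x_at the gap was narrow, between a highest vector value of 429.5 and a lowest GATA1 value of 434.3. How many of all probe sets lay apart in this way was not counted. At 42 h the same 4 differed by -0.13, 0.13, 0.18 and -0.05, again with none called. At 42 h in GATA1-labelled cells, against 18 h, all 4 were lower, by -1.08, -1.02, -0.999 and -0.99, with limma adjusted p-values between 0.000428 and 0.0322, against 5.54% of all probe sets called lower in that comparison. Probe sets of 1 gene share their RNA and are not replicates. Affymetrix marks with _s_at and _x_at those probe sets whose probes may match other transcripts, and Fcgr2b and Fcgr3 are similar in their extracellular parts. Cross-matching was not tested. At 42 h, where Fcgr3 differed by -4.62, these 4 probe sets lay between -0.13 and 0.18.

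**Figure D3:**
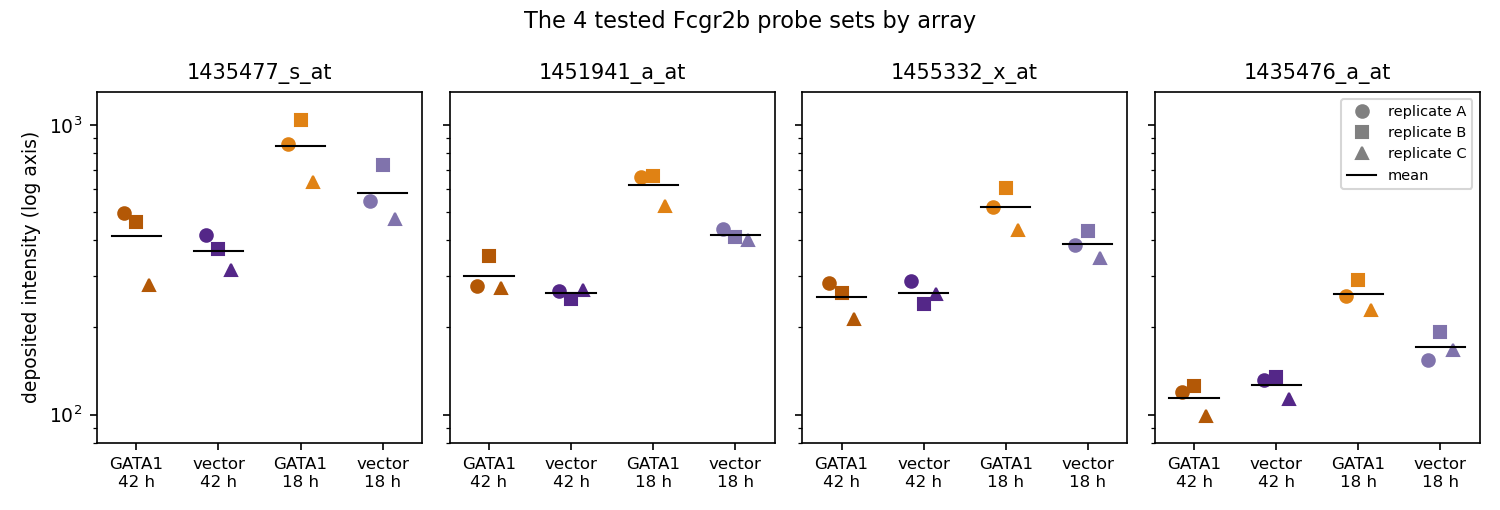
Linear intensity (log axis) of the 4 readable Fcgr2b probe sets on every array, GATA1-labelled left of vector-labelled at each time; points are arrays and bars are means of 3. In each of the 4 the mean is higher with GATA1 than with vector at 18 h, and GATA1 at 42 h lies below GATA1 at 18 h.

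The same values can be shown within arrays, as a description: the group differences given here are the limma differences of the paired genes subtracted from each other, and the pairs were chosen after their values were seen. The log2(intensity + 16) of Fcgr3 minus that of Fcgr2b was -2.48 ± 0.22 with GATA1 and 2.27 ± 0.03 with vector at 42 h (SD, n = 3 each), a difference of -4.75. At 18 h it was -0.11 ± 0.43 with GATA1 and 1.93 ± 0.26 with vector, a difference of -2.04. For Fcgr3 minus Fcer1g, the receptor and its signalling chain, the values were -3.39 ± 0.14 with GATA1 and -0.32 ± 0.20 with vector at 42 h, and -1.49 ± 0.05 with GATA1 and -0.21 ± 0.18 with vector at 18 h. In all 4 comparisons the GATA1-labelled arrays lay below the vector-labelled ones. Such differences show unequal change and say nothing of the ratio of the transcripts, since probe sets differ in brightness.

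**Figure D4:**
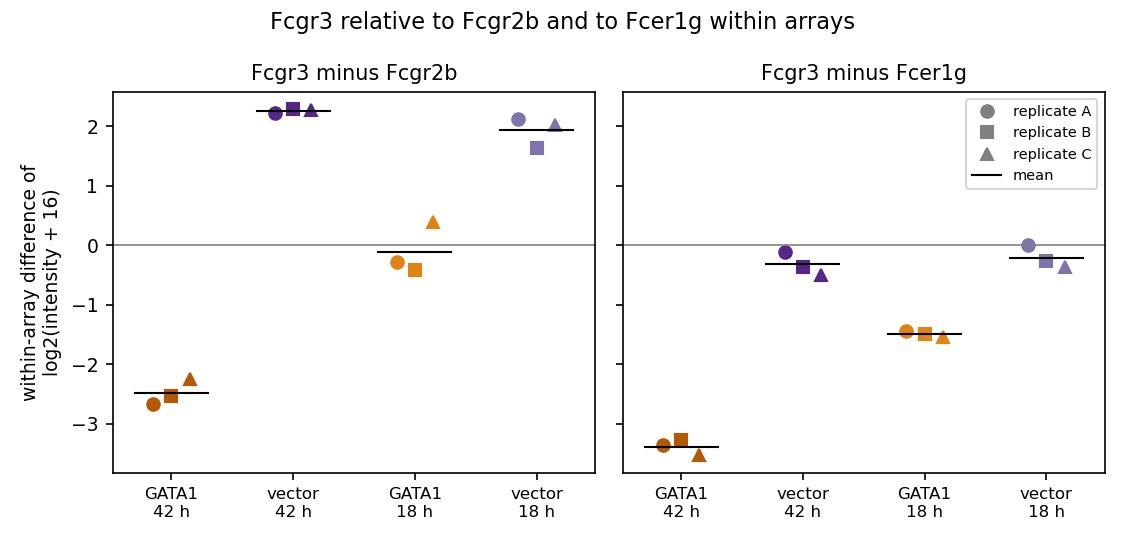
Log2(intensity + 16) of Fcgr3 minus that of Fcgr2b, and minus that of Fcer1g, on each of the 12 arrays, GATA1-labelled left of vector-labelled at each time; points are arrays and bars are means of 3. At 42 h the Fcgr3 to Fcgr2b difference averages -2.48 with GATA1 and 2.27 with vector.

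Fcgr4 encodes FcγRIV, an activating mouse receptor, and lay close to the array medians. It read 5.98, 5.76 and 5.92 with GATA1 at 42 h, against 8.28, 8.66 and 8.72 with vector, and 5.86, 6.27 and 6.29 with GATA1 at 18 h, against 6.75, 25.8 and 17.9 with vector. The GATA1-labelled arrays were lower at both times without overlap, and vector 18 h replicates B and C were the only 2 arrays above 10. With 3 arrays against 3, an exact permutation test cannot give a p under 0.1. The share of all genes without overlap was not counted, here or for the other genes named. Neither difference was called, with -0.17 ± 0.17 at 42 h (limma adjusted p = 0.591) and, for the earlier time, -0.52 ± 0.17 (limma adjusted p = 0.249). Fcgr4 exceeded the array median on 5 arrays, all vector-labelled (2 at 18 h and 3 at 42 h), and on 0 of the 6 GATA1-labelled arrays. It thus passed the filter on low values through the group in which it was higher, and its tests support no difference. Without vector 18 h replicate A the difference at 18 h was -0.77 (limma adjusted p = 0.00847) and the interaction 0.60 (adjusted p = 0.0158), under the same limit.

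Fcgr1 encodes FcγRI, the high-affinity receptor of macrophages and monocytes. It read 7.42, 7.41 and 7.52 with GATA1 at 42 h, against 7.504, 7.357 and 10.24 with vector, and 7.43, 8.49 and 7.47 with GATA1 at 18 h, against 8.11, 8.74 and 7.63 with vector. The groups overlapped, and all values were near the array medians. GATA1 minus vector was -0.05 at the later time (limma adjusted p = 0.522) and -0.02 at the earlier one (limma adjusted p = 1). Its other probe set read between 4.59 and 4.83. At this brightness a change of a dim transcript was not detectable. Fcgr1 exceeded the array median on 3 of 12 arrays, 1 in each group but GATA1 at 42 h, where it did on 0, while the members other than Fcgr1 and Fcgr4 exceeded it on all 12.

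No member was called over time in vector-labelled cells. In vector 42 h against vector 18 h, 0 of the 6 members were called by limma, against 0.0186% of all genes tested. Only 1, Fcgr2b, had an unadjusted p under 0.05, and the share of all tested genes under that unadjusted p was not counted. The vector differences over time were -0.29 for Fcgr3, -0.18 for Fcer1g, -0.16 for Tyrobp and -0.37 for Fcgr4. In GATA1-labelled cells, 42 h was lower than 18 h for 4 of 6 members, against 7.91% of all genes tested: by -3.39 for Fcgr3 (limma adjusted p = 4.1e-07), -2.57 for Tyrobp (0.000177), -1.49 for Fcer1g (9.94e-06) and -1.02 for Fcgr2b.

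The levels of Fcgr3, Fcer1g and Tyrobp, the members called against vector at 42 h, therefore had 1 lowest group. Fcgr2b did not, with means of 368.3 in vector 42 h and 412.6 in GATA1 42 h that were not called apart. For Fcgr3 the means were 59.3 ± 11.0 in GATA1 42 h, 770 ± 67.9 in GATA1 18 h, 1830 ± 218.3 in vector 42 h and 2246 ± 240.4 in vector 18 h (SD, n = 3 each). The 2 vector groups were not called against each other, GATA1 18 h was called above GATA1 42 h, and the pair GATA1 18 h and vector 42 h was not tested. For Fcer1g they were 766.4 ± 51.0 in GATA1 42 h, 2195 ± 272.2 in GATA1 18 h, 2281 ± 120.5 in vector 42 h and 2586 ± 156.3 in vector 18 h, and for Tyrobp 146.6 ± 48.6, 939.9 ± 219.5, 1072 ± 80.1 and 1216 ± 257.3 in the same groups. Among the last 3 groups of both adaptors, GATA1 at 18 h was not called against vector at 18 h, nor vector at 42 h against vector at 18 h.

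By gene order in RefSeq GRCm38.p6, Fcgr2b, Fcgr4 and Fcgr3 are neighbours on chromosome 1 with 0 protein-coding genes between them, and 7 protein-coding genes separate Fcgr3 from Fcer1g. Only genes within 2 places of a member were looked up. At 42 h the tested ones near Fcgr3 and Fcer1g differed by 0.27 for Cfap126 (adjusted p = 0.0605), -0.03 for Sdhc (0.954), 0.45 for Tomm40l (0.0137) and -0.01 for Adamts4 (limma adjusted p = 0.971). Tyrobp on chromosome 7 lies beside Hcst, which encodes the adaptor DAP10 and was lower by -0.66 (limma adjusted p = 0.000196), and Nfkbid, the next gene, was lower by -0.54 (limma adjusted p = 0.0024). Sdhaf1, 2 places to the other side of Tyrobp, differed by 0.29 and was not called (limma adjusted p = 0.0527). Fcgr1 is on chromosome 3.

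Receptors that use the adaptors moved in both directions. Of 24 listed receptors that pair with FCER1G or TYROBP, 21 are on the array and 8 were tested; at 42 h 3 were higher and 2 lower, with a median of 0.01, against 0.001 over all genes tested. This median, and the shares of all tested genes called at 42 h, 10.3% higher and 10.6% lower, are also the background of the lists below. Clec4e, the FCER1G-coupled receptor Mincle for mycobacterial glycolipid, averaged 5.69 ± 0.73 with GATA1 and 279.9 ± 25.6 with vector at 42 h (SD, n = 3 each), a difference of -3.77 (limma adjusted p = 4.72e-06). It was also lower at 18 h, at 46.0 ± 23.3 with GATA1 and 227.9 ± 21.6 with vector (-2.05, limma adjusted p = 0.00255), and was the 1 gene of this list called then. Clec4d, a related lectin receptor, was lower at 42 h by -0.76 (limma adjusted p = 0.00298). Itgb2, the beta chain of leukocyte integrins, was higher at 42 h, 2518 ± 52.2 with GATA1 and 1173 ± 67.8 with vector (1.09, limma adjusted p = 4.34e-05), and Treml4, a TYROBP-coupled receptor, was higher by 0.66 (limma adjusted p = 0.00439). Gp6, which encodes the platelet receptor GPVI, averaged 25.5 ± 3.49 with GATA1 and 16.03 ± 1.22 with vector at 42 h (0.37, limma adjusted p = 0.00207), and is named here after its values were seen. It rose while the gene for its signalling chain, Fcer1g, fell.

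Among 13 other Fc receptor genes, 11 are on the array and 2 were tested; Trim21, the cytosolic antibody receptor, was lower at 42 h by -0.60 (limma adjusted p = 0.0442), and the median of the 2 was -0.30. Of 11 other chains with an ITAM or a related motif, 10 are on the array and 4 were tested, of which 3 were lower and 0 higher at 42 h, with a median of -0.88. These were Cd79b, a chain of the B cell receptor complex (-1.10, limma adjusted p = 0.0424), Nfam1, an ITAM receptor of immune cells (-1.10, limma adjusted p = 0.0351), and Hcst, whose motif binds PI3-kinase and is not an ITAM. Neither list had a member called by limma at 18 h, where 0 of the 2 and 1 of the 4 had an unadjusted p under 0.05.

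Downstream of the motifs, 30 of 37 listed kinases and adaptors were tested, and at 42 h 2 were higher and 13 lower, against 10.3% and 10.6% of all genes tested, with a median of -0.49. Clnk, an adaptor of mast cells and natural killer cells, averaged 67.7 ± 14.9 with GATA1 and 322.4 ± 46.1 with vector (SD, n = 3 each; -2.02, limma adjusted p = 0.000143), and Zap70, a relative of SYK best known from T cells, 32.6 ± 12.1 with GATA1 and 108.7 ± 26.4 with vector (-1.37, limma adjusted p = 0.00736). Src, which encodes the founding Src family kinase, was higher, at 247.2 ± 14.5 with GATA1 and 56.3 ± 14.9 with vector (1.88, limma adjusted p = 6.77e-05). Tec, a Tec family kinase, was higher at both times, by 1.14 at 42 h (limma adjusted p = 0.000769) and, earlier, by 1.497 (limma adjusted p = 0.00184), and was the 1 call of this list at 18 h. Syk itself averaged 1273 ± 346 with GATA1 and 1754 ± 199 with vector at 42 h and was not called (-0.49, limma adjusted p = 0.11); it is named for its place in the pathway, after its values were seen.

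Of 21 listed inhibitors of this signalling, 20 were tested, with 2 higher and 7 lower at 42 h, against the same 10.3% and 10.6%, and a median of -0.30. Ptpn22, a phosphatase that acts on Src family and SYK family kinases, was lower by -1.76 at 42 h (limma adjusted p = 4.56e-05) and, earlier, by -0.74 (limma adjusted p = 0.0492), the 1 call of the list at 18 h. Sirpa, an inhibitory receptor of myeloid cells, averaged 18.4 ± 2.22 with GATA1 and 96.5 ± 5.69 with vector at 42 h (-1.71, limma adjusted p = 4.87e-05). Ubash3a, of a family that restrains ZAP70 and SYK, was higher by 1.11 (limma adjusted p = 0.007) and Ptpn11, which encodes the phosphatase SHP2, by 0.63 (limma adjusted p = 0.00608). Of 14 listed transcription factors of Fc receptor genes and of the cells that use them, 10 were tested, and 6 were lower and 0 higher at 42 h, against 10.6% and 10.3% of all genes tested, with a median of -0.57. The 6 include Gata1 itself (-0.63, limma adjusted p = 0.00346), the supplied gene, whose probe set gave no check of the labels. At 18 h 0 were called by limma, against 0.744% of all genes tested called lower and 1.11% higher, and 5 had an unadjusted p under 0.05. Of these, Cebpb, Elf1, Mitf and the supplied gene Gata1 were lower, and Myb was higher. The share of all tested genes under that unadjusted p was not counted, here or for the other unadjusted counts. Gata2 averaged 623 ± 176 with GATA1 and 3208 ± 679 with vector at 42 h (-2.36, limma adjusted p = 0.000541), and Spi1 100.6 ± 31.7 with GATA1 and 315.1 ± 55.4 with vector (-1.53, limma adjusted p = 0.0016). At 18 h their differences were -0.19 for Gata2 (limma adjusted p = 1) and -0.49 for Spi1 (limma adjusted p = 0.601), with no overlap of the Spi1 arrays at that time.

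**Figure D5:**
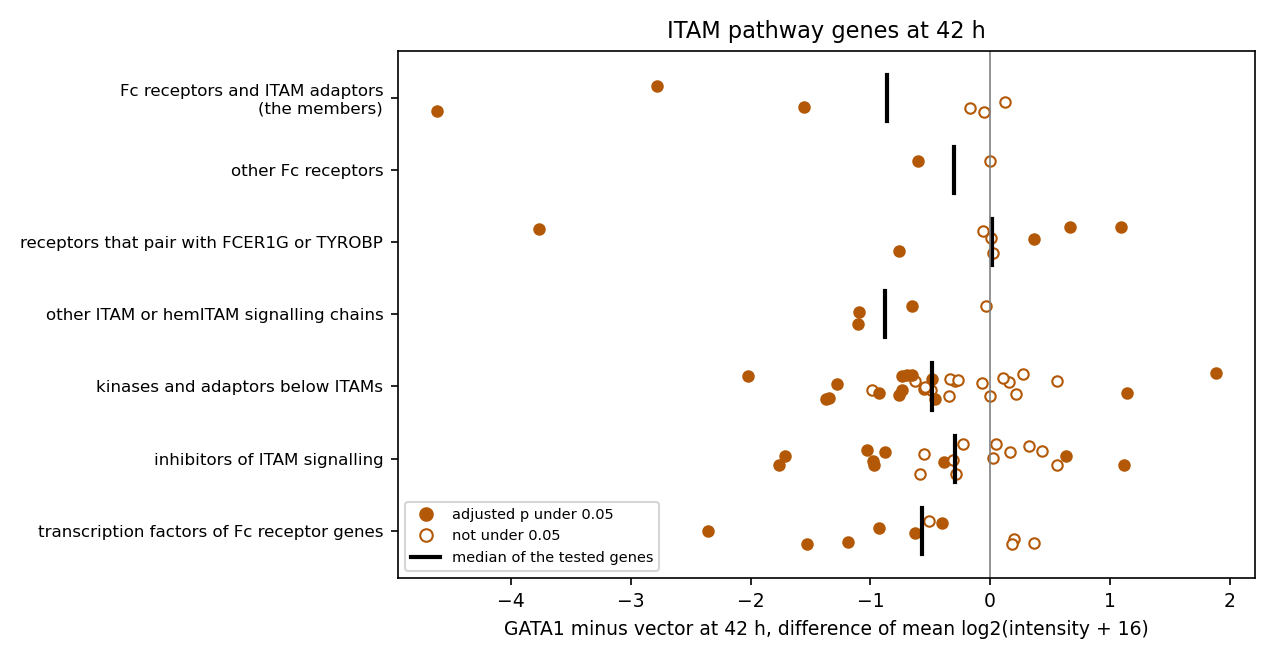
Difference of mean log2(intensity + 16) between GATA1-labelled and vector-labelled arrays at 42 h for every tested gene of the 6 members and of the 6 pathway lists named on the axis, without the cell type markers; filled points are called, open points are not, and bars are list medians. Among these genes Fcgr3 is the lowest point at -4.62, followed by Clec4e at -3.77, and Src is the highest at 1.88.

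Fc receptors mark several cell types, and the markers of those were read on the same arrays. Of 8 mast cell and basophil markers on the array, 2, Cpa3 and Hdc, exceeded the array medians, and Fcer1a, Ms4a2, Mcpt8, Tpsb2, Cma1 and Mcpt4 were below them in all groups. Their summed intensity was 76.6 to 111.5 with GATA1 and 1562 to 2633 with vector at 42 h, and 799.4 to 931.9 with GATA1 and 1492 to 2199 with vector at 18 h. Cpa3, the mast cell carboxypeptidase, makes up most of the sum in vector-labelled cells, with means of 49.9 ± 15.9 with GATA1 and 2008 ± 541 with vector at 42 h (-4.94, limma adjusted p = 1.06e-06). Hdc, the other of the 2 tested, averaged 16.25 with GATA1 and 14.76 with vector at 42 h. It was not called (0.07, limma adjusted p = 0.482), so the fall of this sum is that of 1 gene. The 8 macrophage and monocyte markers summed to 337.6 to 414.8 with GATA1 and 476.9 to 698.2 with vector at 42 h, and to 400.2 to 634.9 with GATA1 and 511.4 to 722.8 with vector at 18 h. Of these, 4 were tested and 0 called by limma at either time, with 1 at an unadjusted p under 0.05 each time; Cd14 and Adgre1 were below the array medians, and the brightest, Lyz2, averaged 320.7 ± 42.3 with GATA1 and 540.9 ± 110 with vector at 42 h (-0.71, limma adjusted p = 0.0559).

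The 9 neutrophil markers summed to 89.7 to 119.8 with GATA1 and 147 to 239.2 with vector at 42 h, and to 86.3 to 145.9 with GATA1 and 91.5 to 166.1 with vector at 18 h. Of the 2 tested, Mpo was lower at 42 h (-2.67, limma adjusted p = 0.0013) and Prtn3 higher (0.99, limma adjusted p = 0.00102), and Elane was below the array medians. B cell markers, 4 on the array, summed to 78.5 to 85.9 with GATA1 and 82.2 to 86.3 with vector at 42 h, and to 82.9 to 87.7 with GATA1 and 83.7 to 85.6 with vector at 18 h. T and NK cell markers, 5 on the array with 0 above the array medians, summed to 27.9 to 28.3 with GATA1 and 27.7 to 28.2 with vector at 42 h, and to 27.9 to 28.1 with GATA1 and 28.1 to 28.7 with vector at 18 h. Sums for the line's own lineages at 42 h were 26990 to 33180 with GATA1 and 14580 to 15270 with vector for 6 megakaryocyte markers, 34810 to 40270 with GATA1 and 434.8 to 965.3 with vector for 7 erythroid markers, and 12430 to 14260 with GATA1 and 13660 to 15800 with vector for 6 progenitor markers. At 18 h they were 16930 to 22310 with GATA1 and 12500 to 16230 with vector, 3872 to 5655 with GATA1 and 381.3 to 1537 with vector, and 14380 to 17130 with GATA1 and 12660 to 15440 with vector, in the same order of lists. The megakaryocyte and progenitor sums cover opposite changes. Of the 6 megakaryocyte markers, 4 were called higher at 42 h and 1 lower, against 10.3% and 10.6% of all tested genes. Gp9 was the lower one, by -0.375 (limma adjusted p = 0.0423). Pf4, the brightest of them, averaged 17660 with GATA1 and 8111 with vector. Of the 6 progenitor markers, 2 were called higher and 3 lower at 42 h, against the same shares. Slamf1 differed by 2.32 and Cd9 by 1.09, and Kit by -3.42, Gata2 by -2.36 and Myb by -0.405. The part of other cell types, or of the shift in lineage markers, in the fall of Fcgr3, Fcer1g and Tyrobp was not tested.

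The genes whose pattern over the 12 arrays was most like that of each member were found among all tested genes. Because the arrays fall into 4 groups, such a correlation mostly follows the group means, and it is given as a description. For Fcgr3 these were Tnfrsf13b, which encodes the TACI receptor of B cells (Pearson r = 0.9954), the ETS factor gene Elk3 (0.9952) and Txndc12 (0.9918). Tyrobp was followed most closely by Napsa, an aspartic protease gene (0.994), Coro1a, which encodes an actin-binding protein of leukocytes (0.9921), and Elmo1, a gene of phagocytosis and cell migration (0.9906). For Fcer1g they were the GTPase gene Rab31 (0.9884), Samsn1 (0.9864) and Rasal3 (0.9864). Likeness was lower for Fcgr2b, at 0.9048 for Nfic, 0.8959 for Ripor2 and 0.8959 for F2r. The nearest genes of the dim members were Cacna1a (0.9659), Il5ra (0.9635) and Flnc (0.9449) for Fcgr4, and Clvs1 (0.9412), Fam171a2 (0.9024) and Sall2 (0.8811) for Fcgr1.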

How the data were processed

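Total RNA of sorted G1ME cells was hybridised to Affymetrix arrays, 1 sample per array, and the authors deposited 1 intensity per probe set and array (45101 probe sets, 12 arrays, linear scale). GCRMA and MAS5, with no version, are the tools in the submitters' processing notes; which of them made the intensity values, and the scaling between arrays, are not given in the sources used here. No pair of arrays shared more than 0.0266% of its values. No depth exists for arrays, and their number limits the precision.

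Probe sets with 1 symbol in the platform annotation (34945, with 932 having several and 9160 none) named genes, and 34741 matched RefSeq GRCm38.p6 with 0 symbols updated. The probe set with the highest mean stood for a gene, tested where it exceeded the array median on at least 3 of 12 arrays (10759 genes, all 6 members included). Values were taken as log2(intensity + 16) and fitted with limma 3.58.1 in R 4.3.3 over 4 groups without a replicate block; 5 contrasts were tested two-sided, with Benjamini-Hochberg adjustment over all genes and a threshold of 0.05. The fit was tested on simulated data. The members, gene lists, motifs and alternatives were chosen with earlier results of these data known.

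All members were named. Of every other list, up to 2 genes rising and 2 falling most past the threshold at 42 h were named, else values of its brightest members; Spi1, Gata1 and Gata2 and, for likeness, 3 genes per member were named, and others are said to have been picked after their values were seen. Alternatives (24 settings) varied the pseudocount, filter, probe set, samples, weights, block, normalization and arrays. Promoter and protein sequence of Tyrobp was not used here.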

Additional observations from a re-analysis of the deposited data

Results flagged for a closer look

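The effect of GATA1 differed between the times for 3 of the 6 genes, by the interaction test of limma over 10759 genes. The effect at 42 h minus that at 18 h was -3.10 for Fcgr3 (adjusted p = 1.84e-05), -2.41 for Tyrobp (adjusted p = 0.00497) and -1.31 for Fcer1g (adjusted p = 0.000491), on the log2(intensity + 16) scale. Fcgr3 was lower with GATA1 at both times and more so at 42 h. Tyrobp and Fcer1g were called at 42 h and not at 18 h.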

How the results depend on the processing

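The calls of Fcgr3, Fcer1g and Tyrobp at 42 h and in the interaction held in every setting in which they were tested, with differences at 42 h between -4.94 and -3.94 for Fcgr3, -1.63 and -1.50 for Fcer1g, and -3.00 and -2.45 for Tyrobp. Taking the second brightest probe set left Fcgr2b alone of the 4 bright members, by construction, so that the number of members lower was 0 at 18 h, 0 at 42 h, 0 in the interaction and 1 over time in GATA1-labelled cells. The number lower at 18 h was 0 without the arrays lettered A, where fewer samples were used, and 1 to 2 when single arrays were left out (2 without vector 18 h replicate A, where Fcgr4 was called). The number higher in the interaction was 0 to 1 under the same omissions (1 without vector 18 h replicate A, again Fcgr4). Fcgr4 passed the filter through vector-labelled arrays alone, so these added calls support no difference, nor does its call at 42 h with only the arrays compared (adjusted p = 0.0296). Uncalled differences near 0 changed sign when single arrays were left out, and the cause was not tested: over these omissions Fcgr1 ranged from -0.083 to 0.001 at 42 h, -0.061 to 0.023 in the interaction, -0.032 to 0 over time with GATA1 and -0.044 to 0.04 over time with vector, and Fcgr2b at 42 h from -0.021 to 0.372. Same-letter arrays of different groups had deviations correlated at -0.11 to 0.66 (median 0.41, 18 pairs) and different letters at -0.63 to 0.39 (median -0.17, 36 pairs); 11 of 12 arrays correlated best with one of their own letter, a hint from the data that the labels do not explain. A replicate block on the letters changed no member's call, with 1 member lower at 18 h and 3 at 42 h. Over all genes, calls at 18 h were 119 higher and 80 lower, with totals of 34 (without the arrays lettered A) to 358 (with the replicate block), and at 42 h 1113 higher and 1138 lower, with totals of 643 (second brightest probe set, fewer genes tested) to 3111 (every probe set, more features tested). Dim signal limits what can be said of Fcgr1 and Fcgr4.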
